A study of Macaca fascicularis with 64 samples.

Results

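The transcripts of SPP1 and of its cell-surface receptors CD44, ITGAV, ITGB1, ITGB5 and ITGA4 were followed across the α-, β-, δ- and PP-cells of cynomolgus monkey islets. The set was chosen by name and held 7 genes, of which 6 had a row among the 21041 macaque genes of the count files, while ITGB3 was not analysed here. SPP1 was placed in the set because its level in old islets was already known from these data, so its difference between age groups is given as a description without a p-value. The animals were 16 untreated monkeys, labelled only as young or old, with 8 in each age group and 4 females and 4 males in each. The islets came from the tail part of the pancreas, 1 monkey was taken per day, and 4 libraries of picked single cells were made per monkey, so the day of collection cannot be told apart from the monkey.

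SPP1 encodes osteopontin, a secreted, phosphorylated glycoprotein of the SIBLING family that acts both as a matrix protein and as a cytokine. It carries an RGD site through which it binds αv integrins paired with a β subunit, a neighbouring site that opens after thrombin cleavage and binds α4 and α9 integrins, and a region that engages CD44, the hyaluronan receptor. In the pancreas it is best known from duct cells and macrophages, and it is also made in islets, where osteopontin has been studied in relation to insulin secretion and to cytokine injury of β-cells.

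Of 6141 picked cells, 5908 had over 800 genes and over 10000 unique molecular identifiers (UMIs) and were retained, 2957 from young and 2951 from old monkeys, and no cell name was shared between libraries. Each cell was assigned to the type of its highest hormone transcript among GCG, INS, SST and PPY. This gave 4503 α-cells, 1219 β-cells, 112 δ-cells and 74 PP-cells. α- and β-cells were present in all 16 monkeys with at least 5 cells, δ-cells in 11 monkeys (7 young and 4 old) and PP-cells in 6 (2 young and 4 old). The α, β and δ labels were set beside transcription factors of these types. IRX2, of α-cells, lay between 287 and 734 UMIs per 1000000 UMIs (CPM) in α-cells of the 16 monkeys. In their β-cells it lay between 17.4 and 82.1 CPM. MAFA, of β-cells, lay between 0.575 and 20.1 CPM in α-cells and between 42.9 and 202 CPM in β-cells. NKX6-1, also of β-cells, separated them less, with a median level in α-cells of 27.5% of that in β-cells. HHEX, of δ-cells, lay between 51.2 and 546 CPM there, with medians of 0.704 CPM in α- and 0.242 CPM in β-cells. No independent marker is given for PP-cells. The leading hormone was at least 2 times the next and at least 1% of UMIs in 78.4% of PP-cells, 89.3% of β-cells and 90.2% of δ-cells. The retained cells held 21982838 to 35850398 UMIs per monkey, and the median cell of a monkey held between 41388.5 and 92680.5 UMIs. Every level below is a CPM value of 1 cell type in 1 monkey, from the UMIs of all its cells of that type, and the monkey is the replicate. Nothing in the labels separates the 4 libraries of a monkey by culture or animal, so they were summed.

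SPP1 was a β-cell-enriched transcript. Over all 16 monkeys its level in β-cells ranged from 23.3 to 5249 CPM with a median of 390, against 11.1 to 251 CPM with a median of 39.0 in α-cells. It was higher in β-cells than in α-cells in 16 of 16 monkeys. In δ-cells of 11 monkeys SPP1 lay between 4.09 and 753 CPM (median 48.5), and in PP-cells of 6 monkeys between 8.54 and 212 CPM (median 38.0). With the monkey as a block, SPP1 differed between β- and α-cells by 3.60 ± 0.28 on the log2 scale (edgeR, adjusted p = 5.5e-15, n = 16 monkeys), was lower in δ-cells than in β-cells (-2.87 ± 0.35, edgeR, adjusted p = 1.1e-08) and lower in PP-cells than in β-cells (-3.87 ± 0.46, edgeR, adjusted p = 1.2e-08). Between β- and α-cells 25.7% of the 14648 genes tested were called, and the median gene differed by -0.20. The other types could not be ordered. The log2 difference of SPP1 was 0.73 ± 0.33 between δ- and α-cells (edgeR, adjusted p = 0.10), -0.27 ± 0.42 between PP- and α-cells (edgeR, adjusted p = 0.75) and -1.002 ± 0.46 between PP- and δ-cells (edgeR, adjusted p = 0.17). DESeq2 called the first of these at 0.91 ± 0.34 (adjusted p = 0.037), and so did edgeR when only cells with 1 clearly leading hormone were used (0.95 ± 0.34, adjusted p = 0.037).

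**Figure D1:**
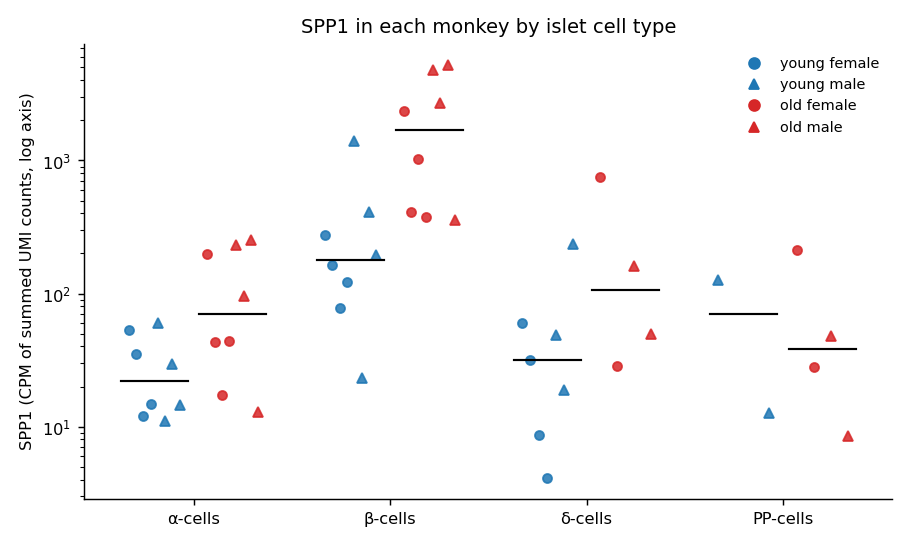
SPP1 in CPM (log axis) for each monkey with at least 5 cells of a type, by cell type (x axis) and age (colour), with circles for females, triangles for males and black bars for medians. β-cells lie highest in both age groups, with medians of 179 CPM in young and 1687 CPM in old monkeys, and 1 young male sits among the old monkeys at 1395 CPM.

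In β-cells SPP1 varied widely between monkeys of the same age. In the 4 young females the levels were 275, 164, 77.7 and 123 CPM, and in the 4 young males 1395, 23.3, 411 and 194 CPM. In the 4 old females the levels were 2351, 408, 1024 and 373 CPM, and in the 4 old males 4786, 2701, 5249 and 358 CPM. The 8 old monkeys all lay above the young median of 179 CPM and 4 of them lay above every young monkey, while 6 young monkeys lay below every old one. The groups overlapped because young male 1 exceeded 4 of the old monkeys, and because old females 2 and 4 and old male 4 lay below young males 1 and 3. The mean was 333 ± 446 CPM in young and 2156 ± 1985 CPM in old monkeys (SD, n = 8 each), a ratio of 6.48. On the log2 scale the old-minus-young difference was 2.68 ± 0.58 (edgeR, SE, with sex in the model). In this fit 5 of 11101 genes were called as changed with age in β-cells, which is 0.045%, and SPP1 was not among them. It was called under DESeq2 (2.65 ± 0.65), without a filter on low counts (2.68 ± 0.50), with the monkey number as a replicate block (2.62 ± 0.46) and without old male 4 (2.85 ± 0.53), and not under the other alternatives. Since the gene was chosen for its difference with age, none of these calls is independent evidence.

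Within a monkey, SPP1 was unevenly spread over β-cells, and the shape of the spread differed between monkeys. In 7 of 8 young monkeys the tenth percentile of SPP1 per cell was 0 CPM, and in 3 of 8 the median cell held none. The median β-cell of a young monkey held between 0 and 739 CPM (median over monkeys 5.63), and the ninetieth percentile lay between 29.6 and 3924 CPM (median 407). In old monkeys the median β-cell held between 16.2 and 5130 CPM (median over monkeys 1270), and the ninetieth percentile lay between 347 and 10336 CPM (median 3620). The median cell of the median old monkey thus held more SPP1 than the ninetieth percentile of 7 of 8 young monkeys.

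The animals differed in how many β-cells carried SPP1 and how much each carried, which is described here without a test. In old males 1, 2 and 3 every β-cell held an SPP1 UMI, the tenth percentile lay at 480, 453 and 852 CPM, and 84.3%, 76.1% and 89.3% of the 83, 67 and 75 β-cells held over 1000 CPM. In old male 4, of 22 β-cells, 59.1% held a UMI (exact binomial 95% confidence interval 36.4 to 79.3), the median cell held 16.2 CPM, and the highest 10% of the cells carried 90.7% of the SPP1 UMIs. Young male 2 was lowest, with a UMI in 13.4% of 127 β-cells (95% interval 7.995 to 20.6) and 96.7% of the UMIs in the highest 10% of cells. Young male 1 resembled the old animals, with a UMI in 97.4% of 76 cells, a median of 739 CPM and 39.5% of cells over 1000 CPM. Across the 8 young monkeys the highest 10% of the β-cells carried between 44.6% and 96.7% of the SPP1 UMIs (median 66.9%), and across the 8 old monkeys between 22.0% and 90.7% (median 34.0%). The highest single β-cell reached 32325 CPM. Intervals here and below cover counting error only.

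**Figure D2:**
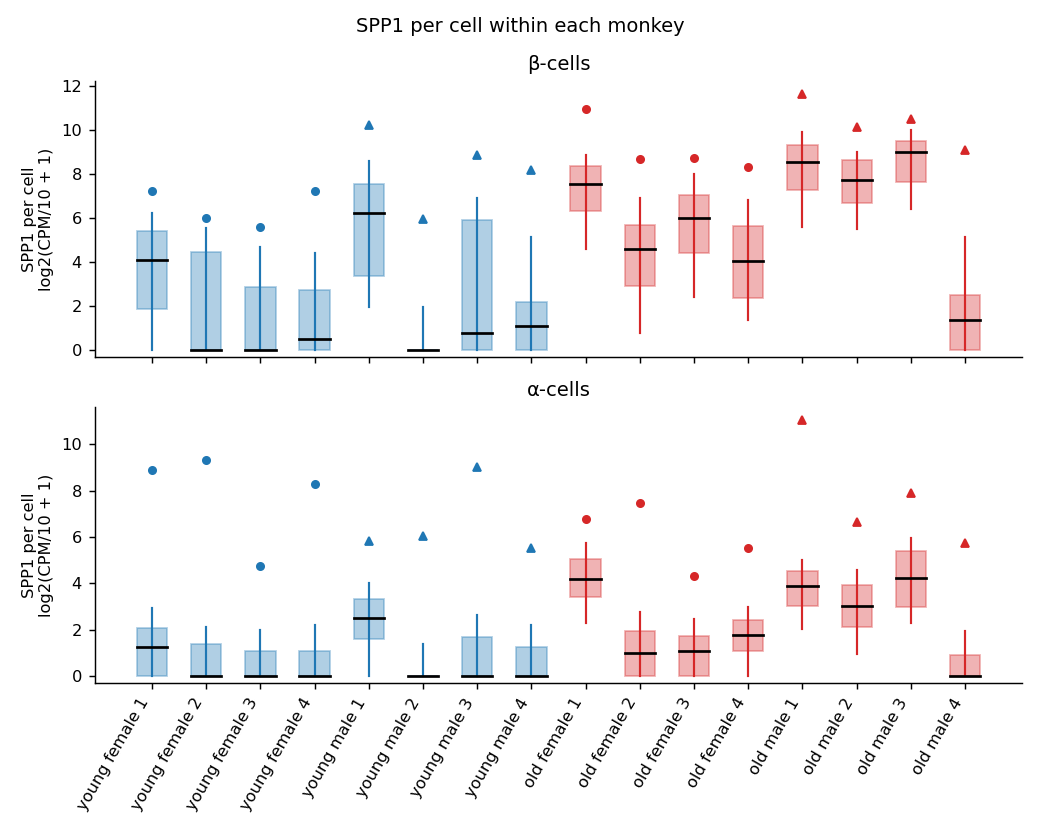
SPP1 per cell as log2(CPM/10 + 1) (y axis) within each monkey (x axis), for β-cells above and α-cells below, with boxes from the 25th to the 75th percentile, black lines at the median, whiskers from the 10th to the 90th percentile and a marker at the highest cell. In β-cells the boxes of old males 1, 2 and 3 and of old female 1 lie highest. The 25th percentile is 0 CPM in 6 young monkeys and in 1 old monkey, old male 4, and the whole box of young male 2 lies at 0.

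The median β-cell held 68543 UMIs in the median young monkey and 79127 UMIs in the median old monkey. When every cell was thinned to 10000 UMIs, which left out 6 of 1219 β-cells, the share of β-cells with an SPP1 UMI had a median of 32.5% over young monkeys (range 7.09% to 84.0%) and of 91.5% over old monkeys (range 27.3% to 100%), against 50.3% and 97.5% before thinning. The spread between monkeys was larger than that between the libraries of a monkey. The SD of log2 CPM in β-cells was 1.27 between libraries of the same monkey with at least 5 β-cells (56 libraries, 15 monkeys) and 2.14 between monkeys of an age group. Leaving out the highest 10% of β-cells of each monkey gave an old-minus-young log2 difference of 3.33 ± 0.82, and the mean over cells of log2(CPM/10 + 1) differed by 3.56 between the age groups.

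In α-cells SPP1 was lower than in the β-cells of the same monkey in both age groups. The young monkeys ranged from 11.1 to 60.5 CPM (median 22.0) and the old monkeys from 12.9 to 251 CPM (median 70.2), so the groups overlapped, with 4 of 8 old monkeys above every young one and 2 young monkeys below every old one. The 4 old monkeys with the highest level in α-cells, old female 1 and old males 1, 2 and 3 at 199, 230, 96.5 and 251 CPM, were also the 4 with the highest level in β-cells. Per cell, the median α-cell held between 0 and 47.3 CPM in young monkeys (median over monkeys 0). In old monkeys it held between 0 and 178 CPM (median over monkeys 47.4). The old-minus-young log2 difference was 1.85 ± 0.57, in a fit in which 0% of 13486 genes were called by edgeR at the adjusted threshold, 920 had an unadjusted p under 0.05 and DESeq2 called 26. SPP1 was called under none of the alternatives in α-cells, which is no independent evidence for a gene chosen by its difference with age. A UMI of SPP1 was found in 58.0% of α-cells at a median depth of 68716 UMIs, and in 28.2% after thinning. IAPP, an islet amyloid peptide gene of β-cells, gave a UMI in 68.8% of the same cells and in 28.1% after thinning. By age, after thinning, SPP1 gave a UMI in 16.8% of young α-cells (exact binomial 95% interval 15.3 to 18.4) and IAPP in 24.0% (22.3 to 25.8). In old α-cells SPP1 gave a UMI in 40.4% (38.3 to 42.5) and IAPP in 32.5% (30.5 to 34.5). These shares pool the cells of 8 monkeys per age group, and their intervals leave out the spread between monkeys. Over the old monkeys the median share was 39.2% for SPP1 (range 7.72% to 74.5%) and 38.9% for IAPP (range 11.6% to 63.5%). Over the young monkeys it was 12.7% (6.06% to 44.7%) and 23.4% (11.4% to 51.6%). Before thinning the pooled shares in old α-cells were 73.1% for SPP1 and 71.8% for IAPP. In δ-cells the pooled shares were 28.6% for SPP1 and 32.1% for IAPP after thinning, and in PP-cells 36.5% and 33.8%. In β-cells of young monkeys the medians of the 2 genes were far apart, at 179 CPM for SPP1 and 2417 CPM for IAPP. In β-cells of old monkeys they were closer, at 1687 and 2638 CPM, with ranges of 358 to 5249 and 1989 to 4682 CPM. The shares above do not separate expression from free RNA, whose part was not tested.

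The level of SPP1 in α-cells was 7.97% of the level in β-cells of the same monkey at the median of 16 monkeys (range 1.70% to 47.5%). This was set beside other genes of β-cells, to show how much transcript of each the α-cells of the same libraries carried. The median was 10.1% for INS, the insulin gene, 1.59% for IAPP, 0.869% for SLC2A2, the glucose transporter of β-cells, and 3.56% for MAFA. It was 27.5% for NKX6-1, a transcription factor of β-cells. SPP1 exceeded IAPP and SLC2A2 in this measure in 16 of 16 monkeys each, MAFA in 13, INS in 7 and NKX6-1 in 2. In young monkeys the SPP1 percentage had a median of 13.7 and in old monkeys of 4.79, a difference that was not tested. Across the 64 libraries, log2 SPP1 in α-cells had a Pearson correlation of 0.75 with the SPP1 that other cells brought to the library pool, and of 0.35 after centring within monkeys, where points share the library and its depth.

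**Figure D3:**
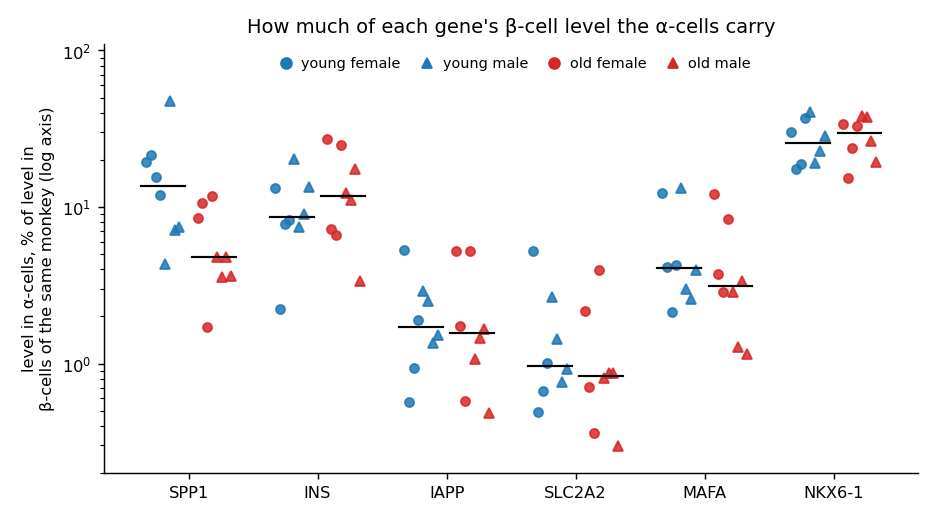
Level in α-cells as a percentage of the level in β-cells of the same monkey (log axis) for SPP1 and 5 other genes of β-cells (x axis), with 1 point per monkey, colours for age, circles for females, triangles for males and black bars for medians. SPP1 sits above IAPP and SLC2A2 and near INS, and its median is 13.7% in young and 4.79% in old monkeys.

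SPP1 in α-cells was also read by their insulin transcript. When the α-cells of each monkey were put in 4 classes by INS level, SPP1 in the class with the least INS had a median of 13.1 CPM in young and 46.0 CPM in old monkeys, and in the class with the most INS of 21.7 and 136 CPM. The highest class exceeded the lowest in 12 of 16 monkeys, with a median ratio of 3.43. In the lowest class alone, an alternative chosen after seeing the data, the old-minus-young log2 difference was 1.47 ± 0.58. SPP1 exceeded 1000 CPM in 23 of 4503 α-cells, 11 young and 12 old, from 8 monkeys. These cells had a median of 14362 CPM of INS against 5340 CPM in the other α-cells, and a median depth of 34393 against 68837.5 UMIs. Their GCG, the glucagon gene, had a median of 72898 CPM against 83008.5 CPM. Their summed acinar, immune and endothelial markers had a median of 0 CPM, as in the other α-cells, and their summed duct markers a median of 59.6 against 100.3 CPM. Their summed stellate and fibroblast markers had a median of 67.3 CPM and their summed Schwann cell markers of 16.8 CPM, against 0 CPM for each in the other α-cells. The part of β-cell transcripts and of these other markers in the α-cell values was not tested.

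δ- and PP-cells were too few for SPP1 to be read by age. In δ-cells the young monkeys ranged from 4.09 to 235 CPM (median 31.5, n = 7), and the 4 old monkeys lay at 753, 28.7, 162 and 49.3 CPM, with a log2 difference of 2.40 ± 0.91. Without old female 1, whose 7 δ-cells gave the highest value, the difference was -0.11. In PP-cells the 2 young monkeys lay at 126 and 12.8 CPM and the 4 old ones at 212, 28.02, 47.9 and 8.54 CPM, and the log2 difference of -1.22 ± 1.24 became 1.17 without young male 1. No gene was called with age in either type (0% of 7405 and of 6568 genes tested by edgeR, with 289 and 394 genes at an unadjusted p under 0.05).

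The difference of SPP1 with age was then compared between sexes and between cell types. In β-cells it was 2.61 ± 0.83 in females and 2.76 ± 0.83 in males, which differed by 0.15 ± 1.11, in a fit in which edgeR called 0% of 11693 genes for the interaction and 495 had an unadjusted p under 0.05. In α-cells it was 1.32 ± 0.79 in females and 2.37 ± 0.81 in males, which differed by 1.05 ± 1.10, where 0.00707% of 14146 genes were called. With so few calls over all genes, the absence of the 5 receptors among them says little about the receptors. Old males held 3274 ± 2238 CPM in β-cells and old females 1039 ± 924 CPM (SD, n = 4 each), and the ranges overlapped. The log2 difference with age in β-cells minus that in α-cells was 1.29 ± 0.40, in a fit in which edgeR called 0% of 15441 genes and 920 had an unadjusted p under 0.05, and it was 1.68 ± 0.33 when cells were thinned to 10000 UMIs. These comparisons use the age difference for which SPP1 was chosen, so they are given as a description without p-values.

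Among the receptors, CD44 was the only one called between β- and α-cells. It was higher in β-cells in 16 of 16 monkeys, at 0.204 to 59.2 CPM (median 13.1) against 0.121 to 7.77 CPM in α-cells (median 1.57), and the log2 difference was 2.93 ± 0.57 (edgeR, adjusted p = 7.0e-05). The ranges of the types overlapped across monkeys because some monkeys were low in both, such as old females 1, 2 and 3 with 0.657, 0.204 and 1.79 CPM in β-cells. The counts behind these values were small, with 1 to 393 CD44 UMIs per monkey in β-cells and 3 to 112 in α-cells. CD44 was not called between the other types, with log2 differences of 1.48 ± 0.75 for δ- against α-cells (edgeR, adjusted p = 0.15) and -1.45 ± 0.77 for δ- against β-cells (edgeR, adjusted p = 0.19). DESeq2 called the first of these at 1.68 ± 0.66 (adjusted p = 0.048).

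No integrin subunit among the members was called between β- and α-cells, which does not show that their levels were alike. ITGAV, the αv subunit of the RGD-binding integrins, lay at 49.4 ± 17.8 CPM in β-cells and 43.5 ± 12.1 CPM in α-cells (SD, n = 16 each) and was higher in β-cells in 8 of 16 monkeys, with a log2 difference of 0.13 ± 0.34 (edgeR, adjusted p = 0.83). ITGB1, the β1 subunit shared by many integrins, lay at 199 ± 44.5 CPM in β-cells and 240 ± 51.6 CPM in α-cells, higher in α-cells in 11 of 16 monkeys, with a log2 difference of -0.30 ± 0.15 (edgeR, adjusted p = 0.15). ITGA4, the α4 subunit best known from leukocytes, lay at 7.47 ± 6.05 CPM in β-cells and 11.9 ± 3.30 CPM in α-cells and was higher in α-cells in 13 of 16 monkeys (-1.02 ± 0.49, edgeR, adjusted p = 0.13). ITGB5, which pairs with αv, lay at 7.06 ± 8.76 CPM and 5.32 ± 6.84 CPM, and its difference of -0.08 ± 0.52 changed sign when cells were thinned, when only clearly typed cells were used and in 5 of 16 fits that left out a monkey. Thus 2 of 6 members, SPP1 and CD44, were called as higher in β-cells, beside 1105 genes called higher and 2654 called lower among all genes (7.54% and 18.1%). By edgeR no receptor was called between δ- or PP-cells and the other types, while DESeq2 also called ITGB1 as higher in PP- than in β-cells (0.78 ± 0.21, adjusted p = 0.0026, against 0.55 ± 0.23 and adjusted p = 0.097 by edgeR). Of all genes, edgeR called 22.8% between δ- and α-cells, 18% between δ- and β-cells, 6.32% between PP- and α-cells, 15.6% between PP- and β-cells and 8.86% between PP- and δ-cells.

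**Figure D4:**
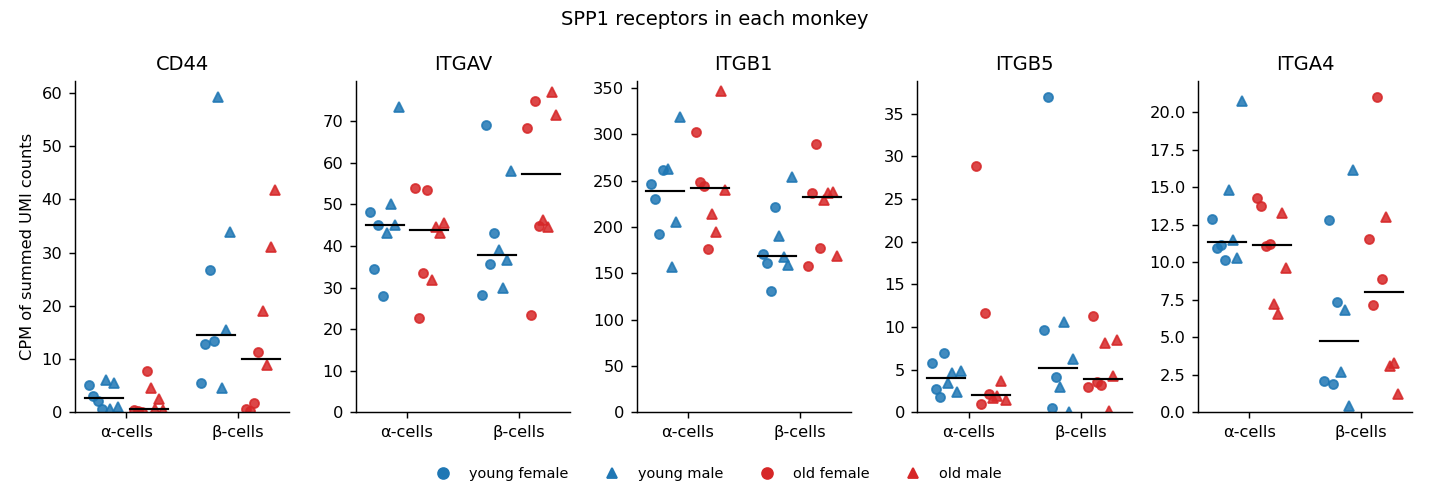
CPM of the 5 receptor genes (1 panel each, y axis from 0) in α- and β-cells of each monkey, with colours for age, circles for females, triangles for males and black bars for medians of the 8 monkeys of an age. CD44 lies higher in β-cells (median 14.4 CPM in young and 10.1 CPM in old) than in α-cells (2.61 and 0.536 CPM), and the young and old points of every receptor overlap.

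With age, no receptor was called as changed in any of the types, beside 0% of all genes called in α-, δ- and PP-cells and 0.045% in β-cells, so this count is no result about the receptors. In β-cells CD44 ranged from 4.50 to 59.2 CPM in young monkeys (median 14.4) and from 0.204 to 41.8 CPM in old ones (median 10.1), with a log2 difference of -1.04 ± 0.63 (edgeR, adjusted p = 0.95). ITGAV ranged from 28.3 to 69.1 CPM in young β-cells (median 37.9) and from 23.3 to 76.97 CPM in old ones (median 57.3), and the difference was 0.41 ± 0.25 (edgeR, adjusted p = 0.96). ITGB1 ranged from 131 to 254 CPM (median 169) and from 158 to 290 CPM (median 233), with a difference of 0.27 ± 0.17 (edgeR, adjusted p = 0.96). For each of these 3 genes the ranges of old and young β-cells overlapped. ITGB5 (-0.57 ± 0.78) and ITGA4 (0.40 ± 0.64) had adjusted p-values of 1.0 each by edgeR. In α-cells the 5 receptors differed by between -0.54 ± 0.80 for CD44 and 0.23 ± 0.60 for ITGB5, with adjusted p-values between 0.85 and 0.96 by edgeR, and the differences of ITGB1 (0.05 ± 0.14) and ITGAV (-0.17 ± 0.18) were small beside the spread between monkeys. In δ-cells only ITGAV, ITGB1 and ITGA4 had enough counts to be tested, and in PP-cells only ITGAV and ITGB1, and none was called. The ITGA4 value in δ-cells, -3.42 ± 1.71, rested on 3 of 4 old monkeys listed at 0 UMIs and is not a bound.

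**Figure D5:**
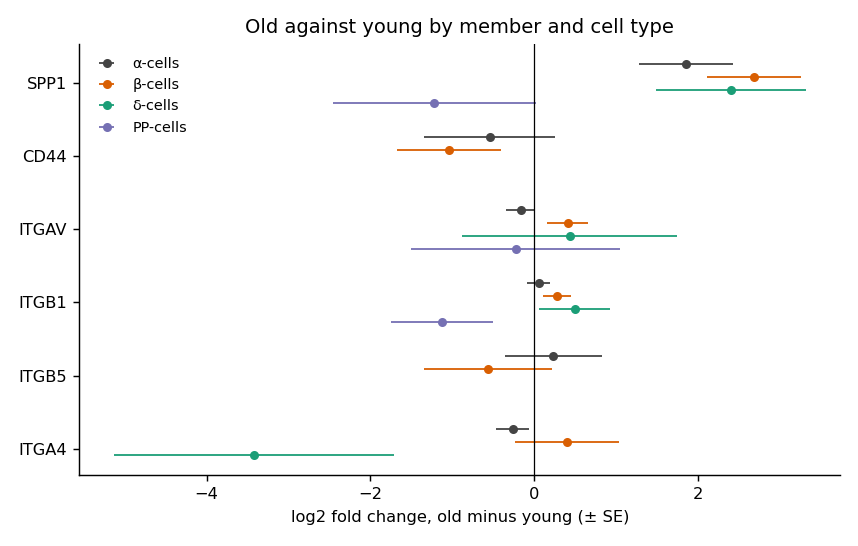
Old-minus-young log2 fold change with its SE (x axis) for SPP1 and each receptor (y axis) in the 4 cell types (colours), from the edgeR fits with sex in the model, where members with too few counts in a type are left out. SPP1 stands at 2.68 for β, 1.85 for α, 2.40 for δ and -1.22 for PP, and the receptors in α- and β-cells stay between -1.04 and 0.41.

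Genes around SPP1 were read from 7 lists written from general knowledge. They covered the SIBLING family, other integrin subunits, enzymes that act on SPP1, and other ligands of the receptors together with hyaluronan synthases. They also covered adhesion signalling, regulators of SPP1 and proteins secreted with it. With age, 0 of the 58 genes tested in α-cells and 1 of the 44 tested in β-cells was called, beside 0% and 0.045% of all genes. That gene was SERPINA1, a secreted protease inhibitor, at 1.97 ± 0.34 in β-cells. Its list was written because its genes were already known to be higher in old cells. The call is therefore no independent evidence, and the age differences of this list are given without p-values. APOD, a secreted lipocalin of the same list, stood at 2.11 ± 0.54 in β-cells and 1.83 ± 0.73 in α-cells. IBSP, the one SIBLING relative tested, stood at 0.66 ± 0.38 in β-cells (edgeR, adjusted p = 0.94) and 0.74 ± 0.27 in α-cells (edgeR, adjusted p = 0.71). The medians of the other 5 lists lay between -0.34 and 0.24 in the 2 types, against a median of all genes of -0.00063 in α-cells and 0.012 in β-cells.

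Between β- and α-cells 4 of the 65 list genes tested were called higher and 13 lower, beside 7.54% and 18.1% of all genes, and the counts below are a description of the lists and not a result about them. Of 14 other integrin subunits tested, ITGA2, the α2 subunit of a collagen receptor, was higher in β-cells (1.41 ± 0.27, edgeR, adjusted p = 5.2e-05), and 3 were lower, ITGA2B (-2.38 ± 0.49, edgeR, adjusted p = 0.00015), ITGB8 and ITGA8. Of 15 other ligands and hyaluronan synthases 0 were called higher and 4 lower, the ligands SRGN, VTN and COL1A1 and the synthase HAS3. Of 18 adhesion signalling genes 0 were called higher and 2 lower, PTK2B and EZR. EZR, which links CD44 to the actin cytoskeleton, stood at -2.04 ± 0.28 (edgeR, adjusted p = 6.1e-08). ACP5, a phosphatase that can dephosphorylate SPP1, was lower in β-cells (-4.02 ± 0.67, edgeR, adjusted p = 5.8e-06). Of 7 regulators tested, MAFA (4.65 ± 0.34, edgeR, adjusted p = 5.1e-16) and ETS1 (2.59 ± 0.59, edgeR, adjusted p = 0.00058) were higher, and FOS (-2.27 ± 0.17, edgeR, adjusted p = 7.0e-16), an AP-1 subunit, and GIPR, an incretin receptor, were lower. In the list of 8 enzymes CTSD was the other gene called, higher in β-cells. SERPINA1 was lower in β-cells (-1.85 ± 0.28, edgeR, adjusted p = 8.0e-07). The genes of this paragraph given without a value were named after their values were seen. In δ-cells the laminin receptor subunit ITGA6 was higher than in α-cells by 5.25 ± 0.55 (edgeR, adjusted p = 1.4e-10) and than in β-cells by 5.40 ± 0.58 (edgeR, adjusted p = 3.7e-10).

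To see what went with SPP1 among cells of the same animal, the β-cells of each monkey were sorted into 4 classes of depth and split within each into SPP1-high and SPP1-low cells, 589 each. Cells with equal SPP1 were ordered at random. Thus 57 SPP1-high and 209 SPP1-low β-cells held no SPP1 UMI, and the split does not set expressing against non-expressing cells. SPP1 itself had a median over monkeys of 781 CPM in the SPP1-high and of 45.6 CPM in the SPP1-low cells by construction, at median depths of 73640 and 74859 UMIs. No other gene was called (edgeR, 0% of 12438 genes, 391 at an unadjusted p under 0.05), and DESeq2 called 1, SUSD3, which is named here after its value was seen. The 5 receptors differed by between -0.17 ± 0.53 for CD44 and 0.15 ± 0.50 for ITGB5 (edgeR, adjusted p = 1.0 each). In α-cells, 2235 in each class, 392 SPP1-high and 1484 SPP1-low cells held no SPP1 UMI. Between these classes 3 of 15104 genes were called (0.0199%), all higher in SPP1-high cells. These were IAPP (0.91 ± 0.16, edgeR, adjusted p = 0.046), GAD2, the GABA-synthesizing enzyme of β-cells (0.75 ± 0.12, edgeR, adjusted p = 0.030), and INS (0.50 ± 0.09, edgeR, adjusted p = 0.046). DESeq2 also called IAPP (adjusted p = 9.8e-05), GAD2 (adjusted p = 5.6e-05) and INS (adjusted p = 0.030), together with further genes. By edgeR none of these 3 was called when only α-cells with a clearly leading GCG were used, when cells were split within libraries, or in young or old monkeys alone. The receptors stayed between -0.19 ± 0.31 and 0.04 ± 0.12 (edgeR, adjusted p = 1.0 each).

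The genes most like SPP1 across the 49 sums of a type in a monkey were SUGP1, IAPP, SCD, ACADSB and RNF6, with Pearson correlations of log2(CPM/10 + 1) of 0.76, 0.76, 0.75, 0.74 and 0.74 among 6255 genes with a mean of at least 20 CPM. Among the members, ITGAV reached 0.26 and ITGB1 0.017. These sums share monkeys and libraries, and IAPP marks β-cells. Across the β-cells within a monkey the highest mean Spearman correlations with SPP1 over 16 monkeys were 0.20 for GGH, 0.18 for TSPAN2, 0.18 for CD24, 0.17 for PTRH2 and 0.17 for GSTM5, all weak values in sparse counts.

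Markers of other pancreatic cells that make SPP1 were low in β-cells. Of 12 duct markers in the files, CFTR and SOX9 were at 0 in β-cells of every monkey, and the sum of the list ranged from 83.7 to 147 CPM in young and from 82.8 to 330 CPM in old β-cells. The 12 macrophage and immune markers summed to between 15.7 and 69.7 CPM in young and between 6.66 and 91.3 CPM in old β-cells. The 8 stellate and fibroblast markers summed to between 0.310 and 149.7 CPM in young and between 1.79 and 206 CPM in old β-cells, the 6 acinar ones to at most 458 and 6.50 CPM, the 6 endothelial ones to at most 18.9 and 83.001 CPM and the 4 Schwann cell ones to at most 32.5 and 82.5 CPM. PTPRC, the common leukocyte antigen, had a median of 0.0754 CPM in young and of 0 CPM in old β-cells. In α-cells the duct list summed to between 104 and 166 CPM in young and between 139 and 234 CPM in old monkeys, and the immune list to between 11.7 and 265 CPM and between 12.2 and 140 CPM.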

How the data were processed

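Single islet cells were picked by mouth pipette and made into 64 modified STRT libraries. Per the labels and the study's methods, the authors trimmed reads, aligned them with TopHat2 2.0.12 to Macaca_fascicularis_5.0 after base calling with CASAVA 1.8, counted uniquely mapped reads per gene, collapsed UMIs and deposited raw UMI counts, with 95 spike-in rows (5.41% of UMIs) left out of CPM. Members and lists were chosen with earlier results of these data known. For each monkey and type with at least 5 cells the counts of all cells were added up, and these sums entered edgeR 4.0.16 under R 4.3.3 (with TMM, filterByExpr, quasi-likelihood, Benjamini-Hochberg over all genes, threshold 0.05, sex as covariate for age, monkey as block for types and splits). Doublets were not called. Cells were retained over 800 genes and 10000 UMIs. The mapping-rate filter of the study was not used. A clearly leading hormone meant at least 2 times the next and at least 1% of UMIs. Alternatives were DESeq2 1.42.0, no filter, no covariate, replicate block, each monkey left out, thinning, over 2000 genes and 20000 UMIs, a clearly leading hormone, omission of the highest 10% of SPP1 cells, a mean over cells, at least 20 cells, and no cells above the 95th percentile of UMIs. Named genes were the members, called list genes (up to 8 per comparison by adjusted p), genes called between SPP1-high and SPP1-low cells with a mean of at least 20 CPM, and the 5 genes most like SPP1 by each measure. Scripts were tested on simulated data. No coordinates or sequences are given.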

Additional observations from a re-analysis of the deposited data

Results flagged for a closer look

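In 12 of 42 groups of 4 to 8 monkeys, each a gene in a cell type and age group, the highest or lowest level stood apart from the others by Dixon's criterion, which chance meets in about 1 in 20 groups of normally spread values. For SPP1 this was young male 1 in β-cells, at 1395 CPM where the next young monkey held 411 CPM, and young male 3 in δ-cells, at 235 CPM against 59.9 CPM. For CD44 it was young male 3 in δ-cells at 23.5 CPM, old male 2 in δ-cells at 64.8 CPM and old male 2 in PP-cells at 19.2 CPM. For the integrin subunits it was ITGAV in δ-cells of old female 1 at 228 CPM, ITGA4 in α-cells of young male 4 at 20.8 CPM, in δ-cells of old male 4 at 14.5 CPM and in PP-cells of old female 1 at 0 CPM, and ITGB5 in α-cells of old female 1 at 28.9 CPM, in β-cells of young female 2 at 37.0 CPM and in δ-cells of young female 2 at 7.87 CPM. Some flagged values rest on few counts, such as 2 ITGB5 UMIs in δ-cells of young female 2 and 4 CD44 UMIs in PP-cells of old male 2. Levels near 0 are not normally spread, so the number of flagged groups does not show an excess of outlying animals. The 233 barcodes that did not pass the cell filter, which enter no comparison, held SPP1 at 160 CPM (185 UMIs, in 29.6% of the barcodes), against 397 CPM over all retained cells.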

How the results depend on the processing

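SPP1 by age kept its direction under every alternative run in α-cells (1.41 to 2.76, replicate block 1.72) and β-cells (2.46 to 3.56, replicate block 2.62), where the α-cells with the least INS (1.47) were chosen after seeing the data, and no receptor was called by age under any. The minimum of 20 cells was run for β-cells alone, since every monkey held more α-cells, none as many δ-cells and 1 as many PP-cells. Without 1 monkey it spanned 1.45 to 2.08 in α-cells, 2.37 to 3.23 in β-cells, -0.11 (without old female 1) to 3.12 in δ-cells and -2.93 to 1.17 (without young male 1) in PP-cells. Same-numbered monkeys had a median correlation of deviations of 0.018 in α-cells and -0.029 in β-cells. For monkeys of unlike number it was -0.0074 and 0.013, and 7 of 16 correlated best with their own number in each type. These values do not decide whether the monkey numbers pair the animals, and the main fits did not use them. The replicate block changed no call of a receptor. It brought SPP1 in β-cells past the threshold, which is no independent evidence for a gene chosen by its difference with age. The number of genes called by age was 26 under DESeq2 against 0 in α-cells, and in β-cells 41 under DESeq2, 21 without a filter, 3 after thinning and 2 without the deepest cells, against 5. After thinning, the SPP1 difference with age in β-cells minus that in α-cells was 1.68 against 1.29, which is a description, and SPP1 in δ- against α-cells passed the threshold at 0.91 (DESeq2) and 0.95 (clear hormone). Genes called between SPP1-high and SPP1-low cells numbered 1 under DESeq2 in β-cells, and in α-cells 12 under DESeq2, 1 within libraries and 0 with a clear hormone, in young or in old monkeys alone. ITGB5 by age changed sign with the replicate block in α-cells (-0.016) and β-cells (0.11), and between β- and α-cells after thinning (0.50) and with a clear hormone (0.18). Leaving out 1 monkey also reversed the SPP1 interaction of age and sex in β-cells (-0.27 to 1.37), ITGB1 (-0.020 to 0.12) and ITGB5 (-0.34 to 0.42) by age in α-cells, ITGB5 (-0.82 to 0.093) and ITGA4 (-0.0010 to 0.88) in β-cells, ITGAV in δ-cells (-1.57 to 1.25) and PP-cells (-1.14 to 2.60), and ITGB5 between β- and α-cells (-0.30 to 0.19). The cause was not tested. Thinned to 10000 UMIs, the median share of cells with an SPP1 UMI fell from 39.0% to 12.7% in young and from 86.1% to 39.2% in old α-cells, from 72.9% to 42.2% in old δ-cells, and from 75% to 39.6% in young and 65% to 36.7% in old PP-cells. δ- and PP-cells were few, and CD44, ITGB5 and ITGA4 had few UMIs per monkey, which limits what could be called.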
